A study of Mus musculus with 4 samples.

Results

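The Gpr-numbered genes are the protein-coding mouse genes whose symbol is Gpr followed by a number, with or without a final letter, in the GENCODE annotation release M21. There were 72 of them among 21853 protein-coding genes with an annotated transcription start site. Chromatin of mouse hippocampus was immunoprecipitated for H3K4me3, the trimethyl form of lysine 4 on histone H3 that sits at promoters in use or held ready, and the DNA was sequenced. All libraries came from adult male B6CASTF1/J mice, a first-generation hybrid strain, at an age of 2 months, without treatment. The labels call the tissue "layer of hippocampus" and do not say which layer or field. There were 4 libraries, 2 technical replicates each of pool D and pool C, and each pool combined 7 tissue samples. The peak lists used here are those of the single pools, called D and C in what follows, and the list of replicated peaks that draws on both. Each pool gave 1 list, so values are given per list, side by side, and no difference between the pools could be tested.

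G protein-coupled receptors are membrane proteins with 7 transmembrane helices that pass an outside signal to a heterotrimeric G protein, which then changes the level of a second messenger such as cyclic AMP or calcium. The number in the symbol marks receptors that were found by sequence before a ligand was known. Some have since been given a ligand, such as Gpr183, an oxysterol receptor, and some are multipass proteins of internal membranes that are not known to act as receptors at the cell surface. The label "orphan" therefore holds for only a part of the list. In bulk tissue, a promoter marked in few cells and one marked weakly in many cannot be told apart.

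A gene was called marked where a peak shared at least 1 bp with a window reaching 1 kb to each side of any start site of its protein-coding transcripts. Peaks within 1 kb of each other were joined to a domain, and the breadth of a gene is the length of its broadest such domain. The replicated list marked 44 of the 72 genes (61.1%), against 64.8% of all protein-coding genes. The pool D list marked 42 (63.7% of all genes) and the pool C list 49 (66.3% of all genes), and 42 genes were marked in all 3 lists (63.6% of all genes). The list called on both pools together, used only as an alternative, marked 46 (65.6% of all genes). Peaks with a −log10 q of 5 or more marked 42 genes in the replicated list (63.8% of all genes). In none of the 4 lists was a promoter peak found at 23 of the 72 genes (33.6% of all genes). The share of Gpr-numbered genes lay below that of all genes by a few percentage points in the replicated list and in pool D and above it in pool C. Marked Gpr-numbered genes had a median breadth of 2038 bp in the replicated list, with quartiles at 1463 and 3464 bp, and all marked genes one of 2234 bp, with quartiles at 1632 and 3134 bp. In pool D the medians were 1931.5 and 2035 bp, and in pool C 1976 and 2403 bp. The 2 member medians rest on different genes. That of C includes 7 genes not marked in D, which measured 181 to 1058 bp in C. Over genes marked in both pools, the median ratio of C to D was 1.15 for members and 1.17 for all genes. A domain of 5 kb or more was found at 4 of the 44 marked genes in the replicated list (6.94% of all marked genes), at 3 of 42 in pool D (4.74%) and at 5 of 49 in pool C (9.42%). These shares were near those of all marked genes.

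Sequences are shown for 5 genes, because marking in this family went with CpG content in most members and the exceptions are visible in the letters. CpG dinucleotides are in capitals and all other bases in lower case, 5′ to 3′ along transcription, from the mm10 genome. The first set holds the 250 bases before the start site. Gpr27 is CpG-rich and marked, Gpr61 is CpG-poor and marked, and Gpr33 is CpG-poor and unmarked.
Gpr27 (chr6:99692429-99692678, plus strand): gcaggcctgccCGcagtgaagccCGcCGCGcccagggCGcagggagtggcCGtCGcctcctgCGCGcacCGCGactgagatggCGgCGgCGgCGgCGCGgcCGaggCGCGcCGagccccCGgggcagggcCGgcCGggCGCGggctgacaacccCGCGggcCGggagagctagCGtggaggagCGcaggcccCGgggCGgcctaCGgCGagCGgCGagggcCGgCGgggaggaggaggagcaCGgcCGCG
Gpr61 (chr3:108154883-108155132, minus strand): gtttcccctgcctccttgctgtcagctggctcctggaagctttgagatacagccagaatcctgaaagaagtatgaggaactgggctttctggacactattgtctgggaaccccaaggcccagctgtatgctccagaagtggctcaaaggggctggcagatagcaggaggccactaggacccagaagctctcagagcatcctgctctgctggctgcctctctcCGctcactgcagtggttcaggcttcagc
Gpr33 (chr12:52028064-52028313, minus strand): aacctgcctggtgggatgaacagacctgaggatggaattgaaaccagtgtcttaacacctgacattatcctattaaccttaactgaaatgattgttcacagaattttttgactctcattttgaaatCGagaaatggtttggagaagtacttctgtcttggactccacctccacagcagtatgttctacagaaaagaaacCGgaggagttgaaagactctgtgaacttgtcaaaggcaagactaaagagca
These windows held 42 CpG in Gpr27, 1 in Gpr61 and 2 in Gpr33. A replicated peak covered all 250 bases of the Gpr27 window, 232 bases of the Gpr61 window and none of the Gpr33 window.

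The second set shows genes whose strongest peak had its summit not at the start site but within a coding exon. For each, 151 bases centred on that summit are given, which lie wholly inside the exon.
Gpr149 at the summit (chr3:62603608-62603758, minus strand): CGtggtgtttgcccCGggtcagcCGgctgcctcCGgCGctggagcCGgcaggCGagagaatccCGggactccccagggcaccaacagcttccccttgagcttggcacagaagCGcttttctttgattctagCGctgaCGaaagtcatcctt
Gpr182 at the summit (chr10:127750384-127750534, minus strand): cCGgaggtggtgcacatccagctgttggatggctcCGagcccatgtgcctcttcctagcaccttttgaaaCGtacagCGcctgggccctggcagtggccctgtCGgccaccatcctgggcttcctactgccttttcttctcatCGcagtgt
These windows held 11 CpG in Gpr149 and 6 in Gpr182.

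Receptors known from neurons in several brain regions were marked at 17 of 19 genes in the replicated list (64.8% of all genes). In pool D 17 were marked (63.7% of all genes) and in pool C 18 (66.3% of all genes). Most of the group had a ratio of observed to expected CpG of 0.4 or more around the 5′ end. Of all genes with such a ratio 93.7% were marked in the replicated list. The median breadth of the group was 2419 bp in the replicated list, 2358 bp in D and 2419.5 bp in C. The broadest domain of the group in the replicated list belonged to Gpr85, one of the 3 SREB receptors, which are named for their strong conservation across vertebrates and their expression in brain. It measured 6888 bp in the replicated list (chr6:13833243-13840130), 6714 bp in D and 7810 bp in C, and held all 3 of the gene's coding start sites. The other SREB receptors were narrower. Gpr27 measured 4294 bp in the replicated list, 4016 bp in D and 4294 bp in C. Gpr173, which is X-linked, measured 2866, 2727 and 2922 bp in the same order. The order of the 3 SREB receptors by breadth was thus the same in every list, and the pools differed by less than the receptors did.

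Gpr22, a receptor gene that lies whole inside an intron of Cog5 on the opposite strand, had a domain of similar size to that of Gpr85, narrower in the replicated list and in C and broader in D. It measured 6788 bp in the replicated list (chr12:31708419-31715206), 6786 bp in D and 7015 bp in C. Its strongest peak stood at the 50.8th percentile of signal value among all replicated peaks, against a median of 75.3 for all marked genes. The domain was thus broad, with a signal value below that of the typical marked gene. Cog5, which encodes a Golgi tethering subunit, had a separate promoter domain of 1932 bp in the replicated list. Gpr26, a receptor that raises cyclic AMP without added ligand, measured 4812 bp in the replicated list, 4443 bp in D and 4874 bp in C. Without closing the gap between its peaks, Gpr26 measured 2504 bp.

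Gpr19 carried the mark at separate promoters. Its broader domain (chr6:134884330-134888978) measured 4649 bp in the replicated list, 2503 bp in D and 4534 bp in C, and the other (chr6:134897243-134899170) measured 1928, 1856 and 1943 bp. The first held 3 of the 11 coding start sites and the second 7. Pool C was broader than pool D by 1.81 times at the first, the widest gap between the pools among the 42 genes marked in both, and pool D there had 1 peak where pool C had 2. The second domain, at the 5′ end of the gene, differed little between the pools.

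Gpr3 and Gpr12, close relatives of Gpr6 that all raise cyclic AMP without added ligand, had domains of ordinary size. Gpr12 measured 3273 bp in the replicated list, 3067 bp in D and 3382 bp in C. Gpr3 measured 2020, 2062 and 1862 bp, one of only 2 members that were broader in pool D than in pool C, and the other was Gpr160 (1152 bp in pool D, 1108 bp in pool C). Gpr162 measured 3680 bp in the replicated list. The remaining marked genes of the group, Gpr45, Gpr61, Gpr75, Gpr83, Gpr135, Gpr153 and Gpr176, measured 1137 to 2419 bp in that list.

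**Figure D1:**
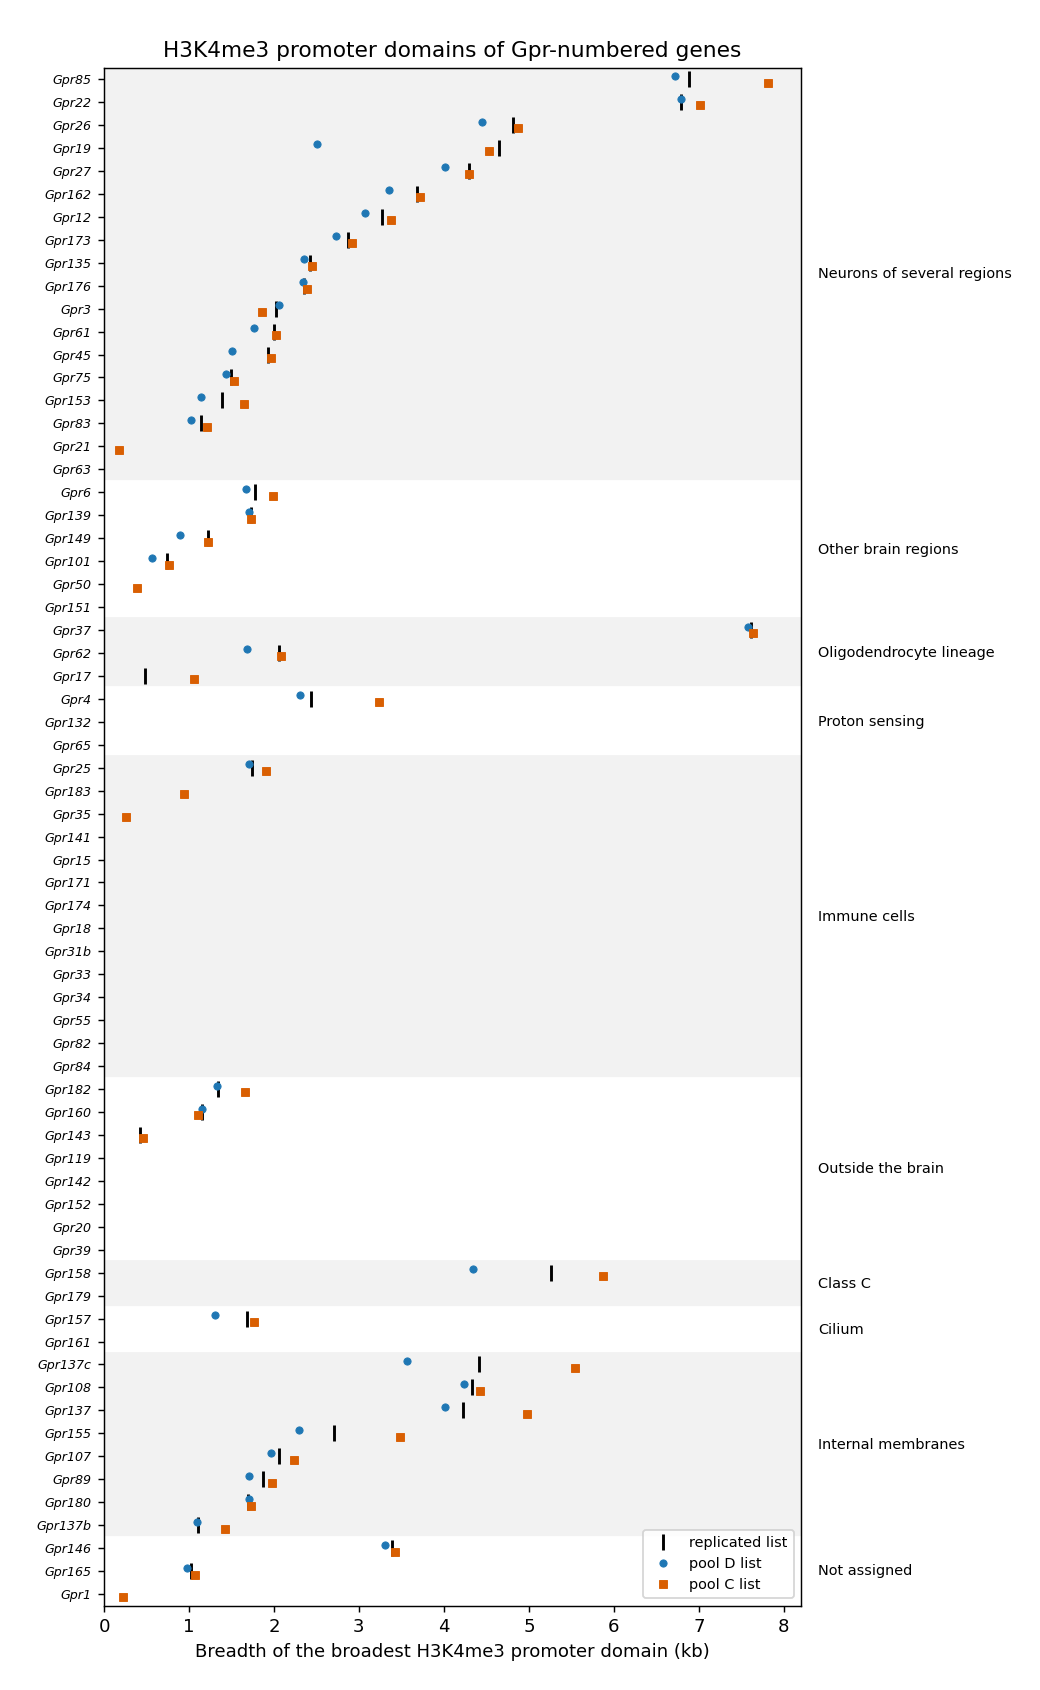
Breadth of the broadest H3K4me3 promoter domain (kb) of 67 of the 72 Gpr-numbered genes, grouped by where the receptor is known from; vertical ticks are the replicated list, circles pool D and squares pool C, and a row without symbols has no promoter peak in any of the 3 lists. Gpr37, Gpr85 and Gpr22 lie beyond 6 kb in every list, and 11 of the 14 immune receptor genes have no symbol.

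Gpr63 and Gpr21 were the neuronal receptor genes without a replicated promoter peak, and they differed from each other. The only coding transcript of Gpr63 starts 4331 bp downstream of the nearest replicated peak. That peak (chr4:24965795-24969088, 3294 bp) covers the gene's annotated 5′ end, where a transcript of another type begins. It measured 3091 bp in D and 3337 bp in C, and it held no start site of another coding gene. Gpr63 is thus unmarked only under the rule of coding start sites, and its 5′ end was marked in all 3 lists. At Gpr21, which lies inside an intron of Strbp, the nearest replicated peak was 63191 bp away, and pool C alone held a weak peak of 181 bp.

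Of the 7 receptors known mainly from striatum, habenula or hypothalamus, 5 were marked in the replicated list (71.4%, against 64.8% of all genes). In pool D 5 were marked (63.7% of all genes) and in pool C 6 (66.3% of all genes). Their domains were narrow, with a median of 1732 bp in the replicated list, 1306 bp in D and 1365 bp in C, below the median of all marked genes in each list. The strongest peaks had a median signal percentile of 45.4 in the replicated list, against 75.3 for all marked genes. Beside them, 9 of 10 marker genes of striatum and habenula were also marked in the replicated list, with a median breadth of 1193 bp, and Pou4f1 was not. The part that such cells may have in these counts was not tested.

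Gpr6 (1780 bp in the replicated list, 1675 bp in pool D, 1988 bp in pool C) and Gpr139, a habenular receptor for aromatic amino acids (1732, 1711 and 1732 bp), were alike in size. Gpr149 measured 1224 bp in the replicated list, 894 bp in D and 1228 bp in C. Gpr101, an X-linked hypothalamic receptor, had 738 bp in the replicated list, 567 bp in D and 770 bp in C. Gpr50, a relative of the melatonin receptors, had 391 bp in pool C alone, and Gpr151, a habenular receptor, had no peak within 9606 bp of its start in the replicated list.

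The 3 receptors of the oligodendrocyte lineage differed widely in breadth. Gpr37, a receptor of mature oligodendrocytes, measured 7618 bp in the replicated list (chr6:25683209-25690826), 7583 bp in D and 7638 bp in C. It was the broadest of the 72 genes in the replicated list and in D, while in C it came after Gpr85. This breadth hangs on a gap of 112 bp between the 2 peaks of the domain, and without closing it the promoter peak of Gpr37 measured 2908 bp. Gpr62 measured 2056 bp in the replicated list, 1680 bp in D and 2086 bp in C.

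Gpr17, which marks oligodendrocyte precursors on their way to differentiation, was the narrowest of the 3 with 481 bp in the replicated list and 1058 bp in pool C. It had no promoter peak in pool D, where the nearest peak began 1183 bp downstream of the start, outside the window. Its strongest replicated peak was weak, at the 9.71th percentile of signal value with a −log10 q of 3.06. Of the marker genes of the lineage, 12 of 12 were marked in the replicated list and in pool C and 11 in pool D. Their median breadths were 1773 bp in D and 4599.5 bp in C. Broader domains in pool C were general, at 96.8% of all genes marked in both pools. The medians of all marked genes were 2035 bp in D and 2403 bp in C. The breadth of Gpr37 in the pools differed by 55 bp, and a link between the markers and Gpr17 was not tested.

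Of the 4 proton-sensing receptors 2 were marked in all 3 lists (63.6% of all genes), among them Gpr4. Gpr65 and Gpr132, both known from leukocytes, were marked in none. Gpr4, known from endothelium, measured 2438 bp in the replicated list, 2310 bp in D and 3240 bp in C. Endothelial marker genes were marked at 11 of 12 in the replicated list, 8 in pool D and 12 in pool C. The part of endothelial cells in the difference at Gpr4 was not tested.

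Receptors known from immune cells were nearly all unmarked, with 1 of 14 genes marked in the replicated list (7.14%, against 64.8% of all genes). In pool D 1 was marked (63.7% of all genes) and in pool C 3 (66.3% of all genes). The genes without a replicated promoter peak all had a ratio of observed to expected CpG under 0.4 around the 5′ end. Of all genes with so low a ratio 21.7% were marked in the replicated list. The part of CpG content in this count was not tested. The marked gene was Gpr25, a receptor of T cells, with a CpG-rich promoter. It measured 1747 bp in the replicated list, 1705 bp in D and 1905 bp in C. Gpr35 and Gpr183 were marked in C, with 264 and 945 bp, but not in D or the replicated list. At Gpr183 the nearest replicated peak began 1068 bp downstream of a start site, just outside the window. In the list called on both pools together Gpr35 had 180 bp. The other 11 had no promoter peak in any list: Gpr15, Gpr18, Gpr31b, Gpr33, Gpr34, Gpr55, Gpr82, Gpr84, Gpr141, Gpr171 and Gpr174. Gpr34, a lysophosphatidylserine receptor of microglia, was 61716 bp from the nearest peak even in pool C.

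Marker genes of microglia and of lymphoid cells were counted beside these receptors. Of 14 microglial marker genes 5 were marked in the replicated list, 1 in D and 11 in C. Their median breadths in the replicated list and in C were 695 and 469 bp. Itgam, Fcrls and C1qb had no promoter peak in any of the 3 lists. Lymphoid marker genes were marked at 0 of 11 in the replicated list and in pool D, and at 1 (Ptprc, 358 bp) in pool C. The part of microglial or lymphoid cells in the counts of immune receptor genes, and in the pool C peaks of Gpr35 and Gpr183, was not tested.

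Receptors known mainly from outside the brain were marked at 3 of 9 genes in the replicated list (64.8% of all genes). In pool D 2 were marked (63.7% of all genes) and in pool C 3 (66.3% of all genes). Gpr182, an endothelial scavenger of chemokines, measured 1344 bp in the replicated list (chr10:127749572-127750915), 1324 bp in D and 1665 bp in C. Gpr160 measured 1148 bp in the replicated list. Gpr143, an X-linked receptor of pigment granules, had 427 bp in the replicated list and 463 bp in pool C, and none in pool D, where the nearest peak was 11782 bp away. Gpr20, Gpr39, Gpr119, Gpr142 and Gpr152 had no promoter peak in any list. Gpr119, a receptor for fatty acid amides in gut and pancreas, lay 19924 bp from the nearest replicated peak.

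Class C receptors have a large extracellular part and include the metabotropic glutamate receptors. Gpr158, a neuronal class C receptor for glycine, had 5255 bp in the replicated list (chr2:21366797-21372051), 4343 bp in D and 5876 bp in C. The domain was made of 3 peaks in the replicated list, and without closing the gaps Gpr158 measured 2708 bp. Gpr179, a protein of retinal bipolar cells, was unmarked in every list, 9588 bp from the nearest replicated peak.

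Of the 2 ciliary receptors, Gpr157 was marked (1681 bp in the replicated list, 1309 bp in pool D, 1763 bp in pool C). Gpr161, a ciliary repressor of Hedgehog signalling, was unmarked, and its nearest peak lay 11287 bp upstream in the replicated list and 9437 bp upstream in pool C. Both of its coding start sites had few CpG, with a ratio of observed to expected CpG of at most 0.220. The gene body of Gpr161 held 1 replicated peak outside its promoters.

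All 8 genes for proteins of the Golgi, the lysosome and other internal membranes were marked in all 3 lists (63.6% of all genes). These 8 genes had a median of 2385.5 bp in the replicated list, 2131 bp in D and 2859.5 bp in C. Their strongest peaks had a median signal percentile of 80.4 in the replicated list, the highest of any group with more than 1 marked gene. Gpr137c measured 4410 bp in the replicated list, 3571 bp in D and 5544 bp in C. Gpr108 measured 4334 bp and Gpr137, a lysosomal protein, 4227 bp in the replicated list. Gpr155, a cholesterol sensor of the lysosome, measured 2708 bp in the replicated list, 2295 bp in D and 3488 bp in C, and its peak had the highest signal value of the 72 genes within the replicated list (92.7th percentile). Gpr107, Gpr89, Gpr180 and Gpr137b measured 1102 to 2063 bp.

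Several of these genes shared their domain with a neighbour. A start site of another coding gene lay in the replicated domain of 5 of the 44 marked genes, against 19.0% of all marked genes, and 4 of the 5 belonged to the internal membrane group. The pairs were Gpr137c with Txndc16, Gpr108 with Trip10, Gpr137 with Bad and Gpr89 with Gja5, and among neuronal receptors Gpr75 with Asb3. For these 5 genes the domain as a whole cannot be assigned to either partner. At Gpr108 the stronger replicated peak held a Gpr108 start site and none of Trip10. A gap of 183 bp parted it from the other peak, which held both the start of Trip10 and the annotated 5′ end of Gpr108.

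The 3 genes placed in no group were Gpr146, Gpr165 and Gpr1. Gpr146 measured 3392 bp in the replicated list, 3301 bp in D and 3426 bp in C, and also had a second domain, which measured 368 bp in the replicated list, 298 bp in D and 2292 bp in C. X-linked Gpr165 measured 1019, 981 and 1070 bp. Gpr1, a chemerin receptor, had 228 bp in C and no promoter peak in D or the replicated list. In the list called on both pools together it had 204 bp.

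Marking of the 72 genes followed the CpG content of their 5′ ends, measured as the ratio of observed to expected CpG in 500 bp on either side. Of 34 genes with a ratio of 0.4 or more, 33 were marked in the replicated list (93.7% of all genes with that ratio). The exception was Gpr63, whose ratio of 0.767 belongs to a 5′ end that carried a peak. Its coding start site had a ratio of 0.277. All 13 genes with a ratio of 0.4 to 0.6 were marked (82.6% of all genes), 15 of 16 at 0.6 to 0.8 (96.0%) and 5 of 5 above that (98.4%). Of 38 genes with a lower ratio, 11 were marked (21.7% of all genes with that ratio), 8 of 19 at 0.2 to 0.4 (36.7%) and 3 of 19 below 0.2 (10.3%). The highest ratio among a gene's coding start sites gave other counts. Marked were 9 of 9 members at 0.4 to 0.6 (78.7% of all genes), 21 of 21 at 0.6 to 0.8 (96.3%) and 5 of 5 above that (98.6%). Lower down, 6 of 20 were marked at 0.2 to 0.4 (22.4%) and 3 of 17 below 0.2 (2.68%). At the 5′ end the median ratio was 0.580 for marked and 0.183 for unmarked members, against 0.710 and 0.173 for all marked and unmarked genes. Marked Gpr-numbered genes thus had fewer CpG than marked genes at large, with a median count of 49 against 60. No test of this difference was made.

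**Figure D2:**
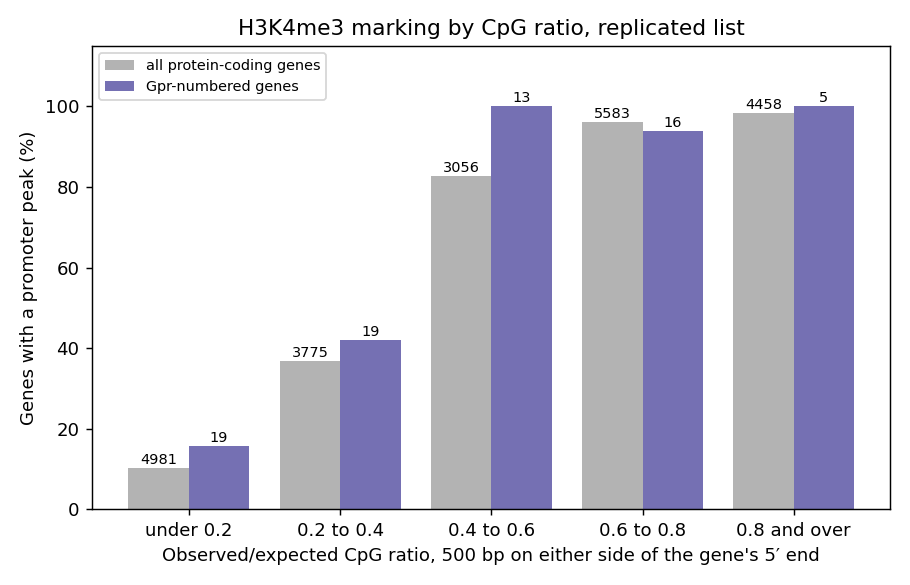
Share of genes with a promoter peak in the replicated list (%, vertical axis) by the observed/expected CpG ratio around the 5′ end of the gene (horizontal axis), for all protein-coding genes and Gpr-numbered genes; the number above a bar is the number of genes. The share is 10.3% of all genes and 15.8% of Gpr-numbered genes under a ratio of 0.2, and 98.4% and 100% at 0.8 and over.

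The 11 marked genes with a low ratio at the 5′ end were of several kinds. In 4 of them the ratio was 0.4 or more around the summit of the strongest peak. At Gpr149 the ratio was 0.139 at the 5′ end and 0.633 at the summit, and at Gpr182 0.194 and 0.507. In both the summit lay in a coding exon, 1457 bp downstream of the start site in Gpr149 and 1273 bp in Gpr182. At Gpr146 the ratio was 0.215 at the 5′ end and 0.793 at the summit, which lay at another of its start sites. The other 7 stayed under 0.4 at the summit, among them Gpr61 (0.115 at the 5′ end, 0.134 at the summit), Gpr22 (0.259 and 0.253) and Gpr173 (0.278 and 0.287). Gpr37 was also among them, with 0.0808 at a summit 2665 bp downstream of the nearest coding start site, which itself had 0.606. The peak with that summit had a signal value of 12.8, against 12.5 for the peak at the start sites. Gpr61 was nevertheless marked over 2006 bp in the replicated list, 1766 bp in D and 2023 bp in C. Its strongest peak stood at the 67.5th percentile of replicated peaks, against a median of 75.3 for all marked genes.

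The summit of the strongest peak was downstream of the nearest coding start site in 40 of the 44 marked genes in the replicated list, against 78.4% of all marked genes, and upstream in Gpr3, Gpr85, Gpr107 and Gpr173. Over all 44 genes the median distance to the start site, on either side, was 194 bp. The summit lay in a coding exon in 15 genes, in an untranslated region in 14, in an intron in 13 and outside the gene in 2, places that were not counted over all genes. A start site of the gene itself lay inside the broadest domain in 41 of 44, against 96.7% of all marked genes, and the exceptions were Gpr17, Gpr149 and Gpr182. With windows of 500 bp, these 3 genes were no longer called marked.

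**Figure D3:**
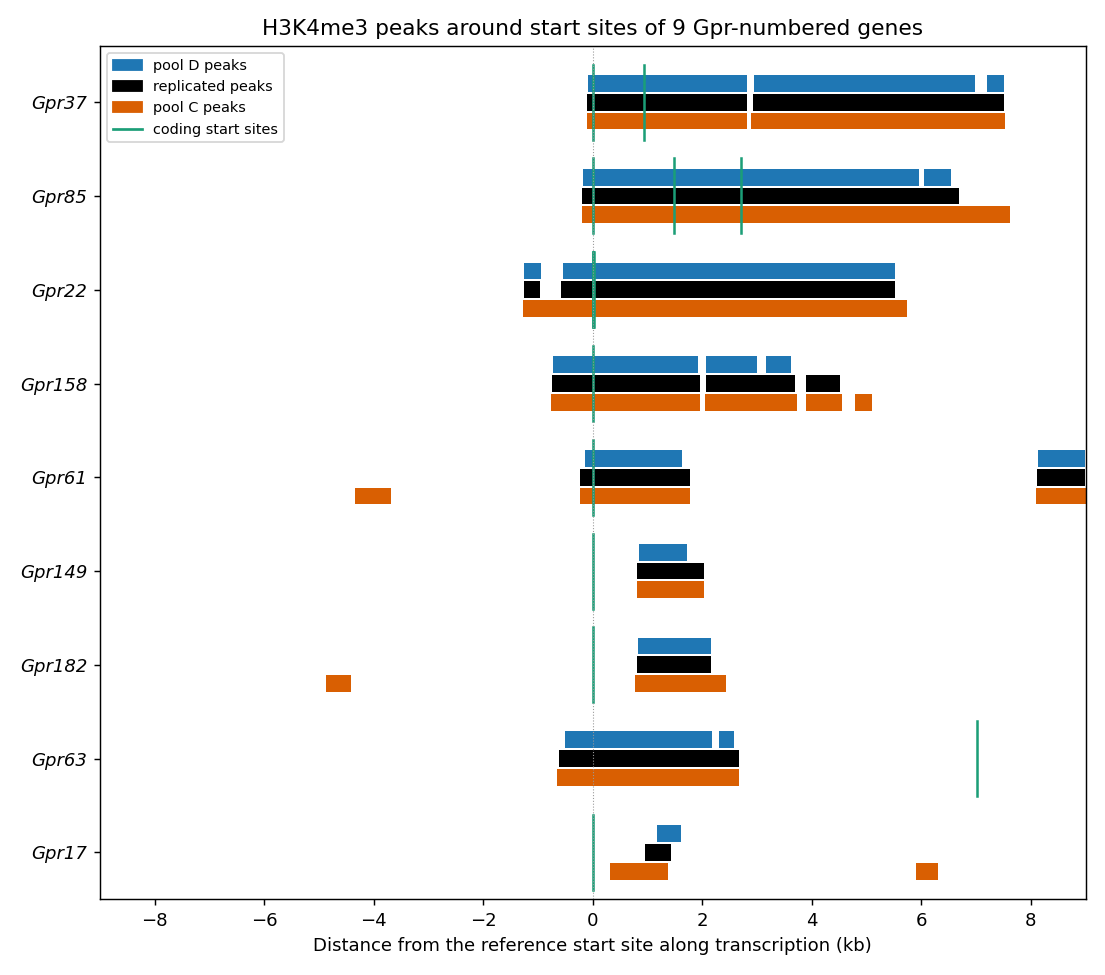
Replicated, pool D and pool C peaks (bars) around 9 Gpr-numbered genes, by distance in kb from the 5′ end of the gene along the direction of transcription; vertical lines are coding start sites. At Gpr149 and Gpr182 the peaks nearest the only coding start site lie downstream of it in all lists, and at Gpr63 the peaks surround the 5′ end but not the coding start site 7012 bp further on.

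Of the 72 genes, 10 lay whole inside an intron of another coding gene (2.49% of all genes do), and 3 of these were marked in the replicated list, against 43.0% of all such genes. The marked ones were Gpr22 in Cog5, Gpr26 in the gene annotated as Fgfr2 and Gpr146 in 3110082I17Rik. Those without a replicated promoter peak included Gpr34 and Gpr82 in Cask, Gpr18 and Gpr183 in Ubac2, Gpr171 in Med12l, and Gpr21 in Strbp. All 7 of these hosts had a promoter domain of their own, from 1579 bp (3110082I17Rik) to 7914 bp (Fgfr2) in the replicated list. Of the 9 X-linked members 4 were marked, against 50.4% of all X-linked genes. Of the 63 others 40 were marked (65.5% of all genes not X-linked). The marked X-linked genes were Gpr101, Gpr143, Gpr165 and Gpr173.

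Between the pools, 40 of the 42 genes marked in both were broader in pool C, as were 96.8% of all genes marked in both, and the median ratio of pool C to pool D was 1.15 for members and 1.17 for all genes. No member differed by 2 times or more, against 4.30% of all genes. Among the wider ratios after Gpr19 were those of Gpr137c (1.55) and Gpr155 (1.52).

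**Figure D4:**
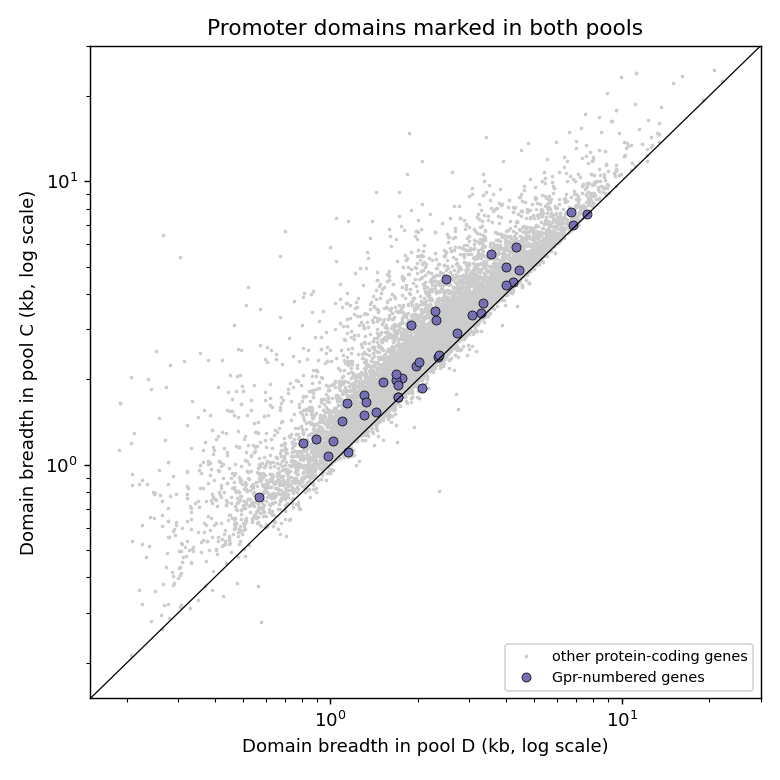
Breadth of the broadest promoter domain in pool C against pool D (kb, both axes on a log scale) for genes marked in both pools, with the line of equality. Of the 42 Gpr-numbered genes, 40 lie above the line, and Gpr3 and Gpr160 below it.

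Promoter peaks in pool C without one in pool D were found at 7 members, against 2.62% of all genes, and the reverse at none (0.0183% of all genes). The 7 genes were Gpr1, Gpr17, Gpr21, Gpr35, Gpr50, Gpr143 and Gpr183. Most were weak peaks, with a −log10 q of 1.94 to 4.39 in pool C except Gpr1 (7.21) and Gpr143 (13.8). Breadths in pool C ran from 181 bp at Gpr21 to 1058 bp at Gpr17. With both lists limited to a −log10 q of 5 or more, the count was 2, against 2.95% of all genes. With windows of 500 bp it was 3, against 2.52% of all genes. The pool C list as a whole held 34193 peaks and the pool D list 24690, and the part of that difference in these 7 genes was not tested.

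The signalling partners of these receptors were marked more often than the receptors themselves, in counts that were not tested against each other. In the replicated list 13 of 16 G protein alpha subunits were marked (81.2%, against 64.8% of all genes), with a median breadth of 3506 bp. The exceptions were the 3 transducins Gnat1, Gnat2 and Gnat3 of photoreceptors and taste cells. Of 17 beta and gamma subunits 15 were marked, of 10 adenylyl cyclases 9, with Adcy10 the exception, and of 8 arrestins and receptor kinases 7, with the rhodopsin kinase Grk1 the exception. Adhesion receptors, a related family with long extracellular parts, were marked at 16 of 27 genes (59.3%), with a median breadth of 3592 bp against 2038 bp for the Gpr-numbered genes. Orphan receptors under other symbols, such as the Gprc5 and Lgr genes, were marked at 10 of 17 (58.8%) with a median of 2621 bp.

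All 12 marker genes of excitatory hippocampal neurons and all 10 of astrocytes were marked in the 3 lists (63.6% of all genes). Their median breadths were 7752 and 6677.5 bp in the replicated list. That list also marked 12 of 12 oligodendrocyte, 11 of 12 endothelial and 9 of 10 striatal and habenular markers (64.8% of all genes). It marked 5 of 14 microglial and 0 of 11 lymphoid markers. Such counts alone do not single out the labelled tissue. Each list held peaks down to low confidence, and 1.32% of the replicated peaks had a q above 0.05. Of the marked Gpr-numbered genes only Gpr17 and Gpr143 had a −log10 q under 5 at the strongest peak in that list.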

How the data were processed

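H3K4me3 ChIP-seq peaks of mouse hippocampus were analysed from 4 lists on mm10, deposited by the authors as pseudoreplicated peaks of pool D, of pool C and of both pools together, and as replicated peaks, each derived from alignments and a control alignment, per the per-library notes. Which caller made the peaks, and with which settings, is not given in the sources used here. The signal value is a score on the caller's scale, as the authors deposited it, and was used only for ranks within a list. The −log10 q value of each peak and its summit offset in bp were also deposited by the authors. The peak files give no read depth.

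Peaks were set against GENCODE M21 and the GRCm38 genome (the same build as mm10) in Python 3.11.15 with numpy 2.4.6. CpG content was counted in that genome. The joining and overlap steps were tested on simulated data, where 400 of 400 marked states and 271 of 271 breadths were recovered. Groups of samples came from the pool named in the labels. The 72 genes, the role groups, the companion and marker lists and the rule for naming genes were chosen with earlier results of these data known. The role groups named 74 symbols, of which 69 matched a gene, and 3 genes were left unassigned. Genes with full values were the 12 broadest, the broadest of each group, those marked in 1 pool only or differing by 2 times or more between pools (none did), the unmarked genes of the neural, ciliary and internal membrane groups, and those with a shared domain or inside another gene. The CpG ratio at summits, the place of summits in exons and the genes chosen for printed sequences were added after values were seen. No test was made, since each pool gave 1 list. Alternatives covered the q threshold, window, start sites, summit position, list and gap. Some genes and sequences are not reported here.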

Additional observations from a re-analysis of the deposited data

How the results depend on the processing

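The number of Gpr-numbered genes with a promoter peak ranged from 41 to 49 around 44 (64.8% of all genes). It was 41 with windows of 500 bp (64.3% of all genes) or the summit inside the window (63.4%), and 49 in pool C alone (66.3%). The genes broader in pool C ranged from 36 to 41 around 40 (96.8% of all genes marked in both pools). The count was 36 with the summit inside the window (96.7%) and 41 with windows of 2500 bp (96.8%). With no gap closed between peaks, 2 in place of 4 genes had a domain of 5 kb or more (4.07% of all marked genes), and Gpr37 and Gpr158 fell below. The median breadth of 2038 bp became 1992.5 bp at the 5′ end alone, 1931.5 bp in D and 1976 bp in C. Each shift was larger than the SD of the pools' medians (31.5 bp). That SD rests on the D and C medians alone and is no measure of spread. Marked immune receptor genes numbered 2 with windows of 2500 bp, 3 in C and 2 when the peaks were called on the pools together, in place of 1. Of the unassigned genes 1 in place of 2 was marked at the 5′ end alone, where Gpr146 was lost. Genes marked in pool C only numbered 2 at a −log10 q of at least 5 (2.95% of all genes) and 3 with windows of 500 bp (2.52%), in place of 7 (2.62%). The cause of these shifts was not tested. With transcripts of any type, or the 5′ end alone, Gpr63 was marked. Depth is unknown, so an absent weak peak does not show an absent mark. No paired analysis was possible because each pool gave 1 list over both technical replicates.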
